A study of Schmidtea mediterranea with 12 samples.

Results

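The transcripts described are 6 homologs of TNF receptor-associated factors (TRAFs) and 1 homolog of a peptidoglycan recognition protein. They were chosen by identifier: dd_Smed_v6_8228_0_1 (TRAF2), dd_Smed_v6_15049_0_1 and dd_Smed_v6_13811_0_1 (TRAF6), dd_Smed_v6_18520_0_1 and dd_Smed_v6_974_0_1 (TRAF4), dd_Smed_v6_5460_0_1 (TRAF3) and dd_Smed_v6_8505_0_1 (PGLYRP1), shortened below to dd_8228 and so on. They are 7 of 28069 transcripts in the count table, and all 7 were among the 13136 that reached 1 CPM in 4 or more of the 12 libraries and were tested. CPM, counts scaled to a common library size, were set by TMM, which corrects for differences in RNA composition. Names are those of the best human hit, and whether reads of short transcripts such as dd_15049 (318 bases) or dd_18520 (382 bases) were shared with related transcripts was not checked.

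The libraries came from uninjured adult planarians of the asexual clonal line CIW4 of Schmidtea mediterranea, 6 to 9 mm long and starved for 7 days. In each of 4 animals, laser capture took the medial branch of the intestine, its lateral branches and tissue outside the gut from sections of the anterior body, 20 µm thick. This gave 4 libraries per tissue, and libraries with the same number came from the same animal. Each library was made from 5 ng of RNA by 3′ mRNA sequencing. The study compared both intestinal regions with this captured tissue outside the gut to find transcripts enriched in the intestine. It set medial beside lateral intestine to find regional expression.

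TRAFs are adaptor proteins that bind the cytoplasmic tails of TNF receptors, or the complexes below interleukin and Toll receptors, and pass the signal on to NF-kB and MAP kinase pathways. Most carry a RING finger and act as, or recruit, ubiquitin ligases. Peptidoglycan recognition proteins bind bacterial cell wall fragments, and in insects and mammals they either signal, degrade peptidoglycan or kill bacteria directly. Both families are known from gut epithelia of other animals, where the lumen holds bacteria.

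Libraries held between 20227187 and 33296270 reads. The labelled tissues were checked by marker transcripts. The summed level of 7 intestinal markers was between 9643 and 13287 CPM in medial intestine, between 8976 and 11274 CPM in lateral intestine, and between 247 and 395 CPM in non-intestine. Summed goblet cell markers (10 transcripts) were between 16773 and 26785 CPM in medial intestine, between 34719 and 38372 CPM in lateral intestine, and between 393 and 699 CPM in non-intestine. Summed markers of neurons (5 transcripts) were between 10.2 and 14.9 CPM in medial intestine, between 5.48 and 19.6 CPM in lateral intestine, and between 58.9 and 77.6 CPM in non-intestine. Most of that sum was PCSK2, at 49.6 to 66.5 CPM in non-intestine, and 2 of the 5 were lower in medial and 1 in lateral intestine. SLC18A3, also among the 5, did not pass the filter on low counts and was not tested. GAD1 went the other way without passing, with means of 2.70 CPM in medial, 2.40 CPM in lateral intestine and 1.85 CPM in non-intestine. Summed muscle markers (2 transcripts) overlapped, at 127 to 256 CPM in medial intestine, 171 to 346 CPM in lateral intestine and 219 to 398 CPM in non-intestine. None of them passed. Most of that sum was COL4A5, with means of 203 CPM in medial intestine, 235 CPM in lateral intestine and 289 CPM in non-intestine. LDB3 averaged 1.76 CPM in medial intestine, 2.32 CPM in lateral intestine and 5.60 CPM in non-intestine. It was lower in intestine in every animal (edgeR FDR = 0.0988 in medial, FDR = 0.226 in lateral). The peripharyngeal marker helz2 was higher in intestine, at 11.4 to 19.5 CPM in medial and 12.0 to 27.0 CPM in lateral intestine, against 2.49 to 5.25 CPM in non-intestine. The part of these cell types in the results was not tested. In captured tissue, fewer cells of a type and less RNA per cell cannot be told apart.

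TRAF2 dd_8228, both TRAF6 homologs and TRAF4 dd_974 were higher in both intestinal regions than in non-intestine. These are 4 of 7 transcripts in each region. To pass, a transcript needed an FDR below 0.01 and a change of more than 2-fold in edgeR's quasi-likelihood test. Of all 13136 transcripts tested, 12.8% were higher in medial intestine and 11.7% in lateral intestine by the same rule, and 11.1% in both. The other 3, TRAF4 dd_18520, TRAF3 dd_5460 and PGLYRP1, did not pass in either region. The study had listed all 7 as enriched in intestine from these same libraries, so the counts are not independent evidence of direction. The 7 had a median log2 fold change of 2.23 for medial intestine and 2.91 for lateral intestine, beside −0.17 and −0.12 over all transcripts tested. No transcript of the 7 passed for medial against lateral intestine, where 0.129% of all transcripts were higher and 0.16% lower at a fold change above 1.5. The libraries of 6 transcripts did not overlap between medial intestine and non-intestine, and those of 5 did not overlap between lateral intestine and non-intestine. Over all transcripts, 18.4% and 18.7% were higher without overlap in these comparisons.

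**Figure D1:**
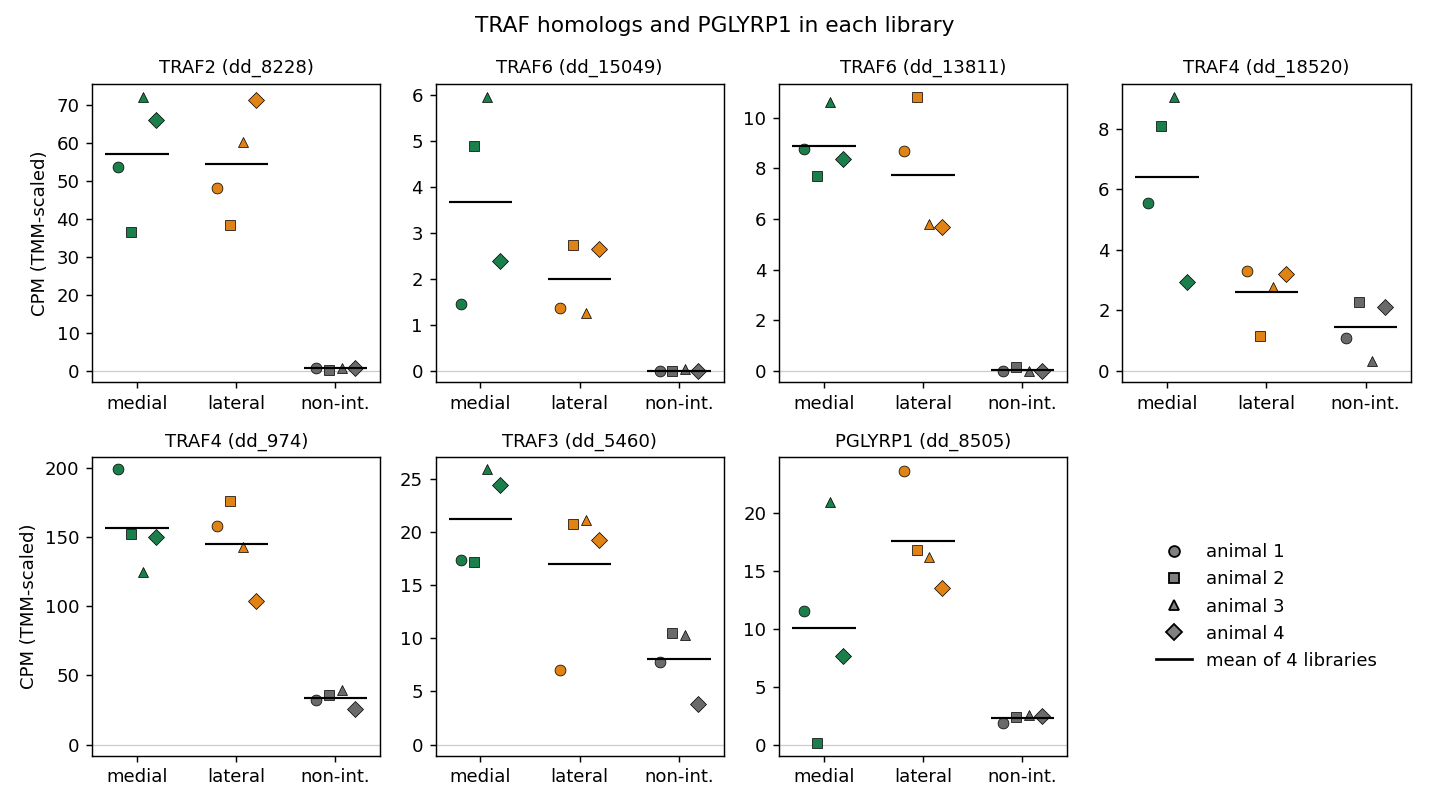
CPM (vertical axis, linear, a scale per panel) of the 7 transcripts in medial intestine, lateral intestine and non-intestine. Points are libraries, marker shapes are animals and lines are means of 4 libraries. TRAF2 and both TRAF6 homologs lie near 0 in non-intestine, while 1 medial library of PGLYRP1 (animal 2, 0.159 CPM) lies below all 4 non-intestine libraries.

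TRAF2, which in mammals links TNF receptors to ubiquitin ligases of the cIAP family, was higher in intestine than outside it in every animal. Its level was 53.8, 36.7, 72.1 and 66.1 CPM in medial intestine of animals 1 to 4, 48.2, 38.5, 60.3 and 71.5 CPM in lateral intestine, and 0.697, 0.362, 0.847 and 0.843 CPM in non-intestine. The 8 intestinal libraries were all far above the 4 non-intestine libraries, and medial and lateral libraries overlapped fully. The fold change was 83.5 in medial intestine (log2 6.38 ± 0.36 SE, edgeR FDR = 1.54e-08) and 79.8 in lateral intestine (log2 6.32 ± 0.36 SE, FDR = 1.77e-08), higher in 4 of 4 animals in each. The intestinal means, 57.2 ± 15.7 CPM for medial libraries and 54.6 ± 14.4 CPM for lateral libraries (SD, n = 4 each), differed by less than the spread between animals (log2 0.07 ± 0.28 SE, FDR = 1).

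The TRAF6 homologs had the largest fold changes of the 7 and were almost unread outside the intestine. In mammals TRAF6 is the ubiquitin ligase below interleukin and Toll receptors. TRAF6 dd_13811 was at 8.77, 7.71, 10.6 and 8.38 CPM in medial intestine, at 8.67, 10.8, 5.81 and 5.7 CPM in lateral intestine, and at 0, 0.169, 0 and 0 CPM in non-intestine. All of its 7 non-intestine reads were in the library of animal 2, against 708 reads in medial and 711 in lateral intestine. No intestinal library came near that value. The fitted log2 fold change was 7.38 ± 0.92 SE in medial (edgeR FDR = 2.80e-05) and 7.18 ± 0.91 SE in lateral intestine (FDR = 3.82e-05). The ratio of levels over all libraries was 165 for medial (exact 95% counting interval 79.8 to 413) and 143 for lateral intestine (68.9 to 356). The non-intestine libraries other than that of animal 2 held no read, so the ratio rests on that library.

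TRAF6 dd_15049 was at 1.45, 4.89, 5.95 and 2.39 CPM in medial intestine, at 1.37, 2.73, 1.26 and 2.66 CPM in lateral intestine, and at 0, 0, 0.0326 and 0 CPM in non-intestine. The non-intestine libraries together held 1 read, against 274 reads in medial libraries and 185 in lateral libraries. The ratio of levels was 448 in medial intestine (exact 95% counting interval 79.7 to 17760) and 260 in lateral intestine (46.1 to 10320). These intervals cover counting error only. The difference passed in both regions (edgeR FDR = 8.65e-05 in medial, FDR = 2.04e-04 in lateral), with higher levels in 4 of 4 animals. Within the intestine it varied more than dd_13811: its medial libraries spanned 4.11-fold, against 1.38-fold for dd_13811.

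The TRAF4 homologs differed from each other in level and in what passed. TRAF4 in mammals is known more for development and cell junctions than for immune receptors. TRAF4 dd_974 was at 199, 152, 125 and 150 CPM in medial intestine, at 158, 176, 143 and 104 CPM in lateral intestine, and at 32.4, 36.1, 39.3 and 26.1 CPM in non-intestine. Intestinal and non-intestinal libraries did not overlap, but unlike TRAF2 and TRAF6 it was well above 0 in every non-intestine library. Its fold change was 4.68 in medial (log2 2.23 ± 0.21 SE, edgeR FDR = 1.92e-06) and 4.33 in lateral intestine (log2 2.12 ± 0.21 SE, FDR = 3.43e-06), higher in 4 of 4 animals in each.

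TRAF4 dd_18520 was at 5.53, 8.08, 9.05 and 2.93 CPM in medial intestine, at 3.29, 1.17, 2.78 and 3.21 CPM in lateral intestine, and at 1.1, 2.29, 0.326 and 2.12 CPM in non-intestine. The medial libraries were all above the non-intestine ones, while the lateral library of animal 2 fell among them. Neither difference passed: log2 2.13 ± 0.67 SE in medial (edgeR FDR = 0.0226) and 0.84 ± 0.65 SE in lateral intestine (FDR = 0.381). The medial difference passed with edgeR's likelihood ratio test (FDR = 0.00458) and, at the limit, with DESeq2 (FDR = 0.009999).

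TRAF3, which in mammals restrains non-canonical NF-kB signaling and serves antiviral receptors, had the smallest medial fold change of the 7. TRAF3 dd_5460 was at 17.4, 17.2, 25.9 and 24.4 CPM in medial intestine, at 7.03, 20.7, 21.1 and 19.2 CPM in lateral intestine, and at 7.73, 10.5, 10.3 and 3.81 CPM in non-intestine. The medial libraries did not overlap non-intestine, but the lateral library of animal 1 lay within the non-intestine range and away from the other 3 lateral libraries. The fold change was 2.63 in medial (log2 1.39 ± 0.38 SE, edgeR FDR = 0.0104) and 2.11 in lateral intestine (log2 1.08 ± 0.38 SE, FDR = 0.0435), and neither passed. Without the lateral library of animal 1, both passed, with 1.40 for medial (FDR = 0.00325) and 1.34 for lateral intestine (FDR = 0.00727). The medial difference also passed with the likelihood ratio test (FDR = 0.0023) and DESeq2 (FDR = 0.00828).

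PGLYRP1, in mammals a secreted protein that kills bacteria, spanned 130.9-fold between animals in medial intestine, the widest of the 7, and 1.75-fold in lateral intestine. PGLYRP1 dd_8505 was at 11.5, 0.159, 20.9 and 7.63 CPM in medial intestine, at 23.6, 16.8, 16.2 and 13.5 CPM in lateral intestine, and at 1.86, 2.39, 2.57 and 2.46 CPM in non-intestine. The 4 lateral libraries were all above non-intestine. The medial library of animal 2 held 3 reads and lay below every non-intestine library, although lateral intestine of the same animal held 358 reads. The log2 fold change was 2.11 ± 0.77 SE in medial (edgeR FDR = 0.0467, higher in 3 of 4 animals) and 2.91 ± 0.80 SE in lateral intestine (FDR = 0.012, higher in 4 of 4 animals), and neither passed. Without the medial library of animal 2, both passed, at 2.52 in medial (FDR = 9.77e-05) and 2.92 in lateral intestine (FDR = 2.42e-05). The lateral difference also passed with the likelihood ratio test (FDR = 0.00129) and DESeq2 (FDR = 9.04e-04).

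That library was thin for other transcripts too. Of 8165 transcripts above 1 CPM in each of the other 7 intestinal libraries, 325 (3.98%) had less than 1/10 of the lowest of those levels in medial intestine of animal 2. The same count was 150 for medial intestine of animal 4 and between 0 and 34 for the other 6 intestinal libraries. PGLYRP1 was the only one of the 7 transcripts among the 325, and the part of this in its values was not tested.

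**Figure D2:**
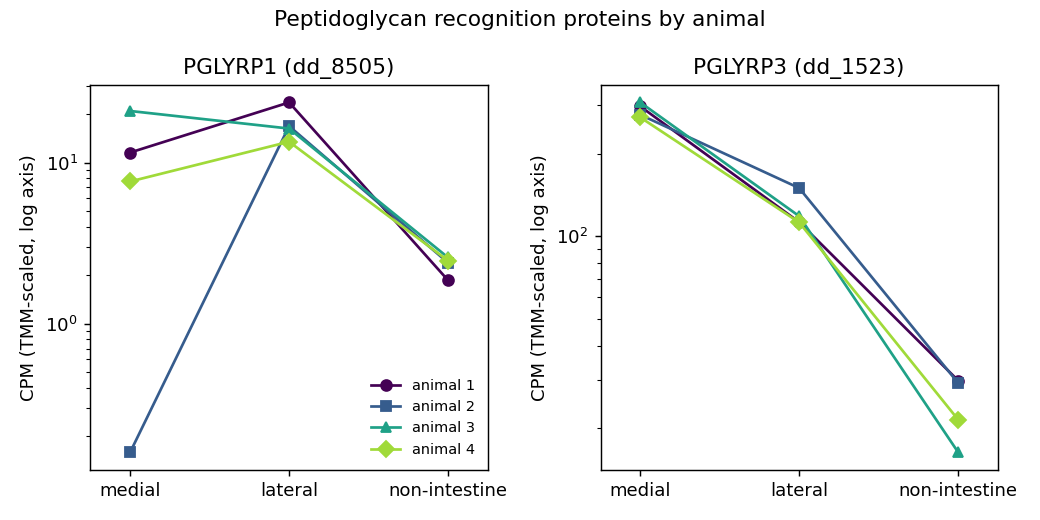
CPM (logarithmic axis) of PGLYRP1 dd_8505 and PGLYRP3 dd_1523 in medial intestine, lateral intestine and non-intestine, with a line for each animal. PGLYRP1 of animal 2 drops to 0.159 CPM in medial intestine, while PGLYRP3 runs from medial over lateral to non-intestine in the same order in all 4 animals.

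The other peptidoglycan recognition protein followed here, PGLYRP3 dd_1523, was more abundant and far more even. It was at 297, 277, 307 and 271 CPM in medial intestine, at 113, 150, 118 and 112 CPM in lateral intestine, and at 29.9, 29.3, 16.4 and 21.5 CPM in non-intestine. No 2 tissues overlapped. Its log2 fold change over non-intestine was 3.57 ± 0.21 SE in medial (edgeR FDR = 2.23e-08) and 2.34 ± 0.20 SE in lateral intestine (FDR = 8.22e-07), and 1.22 ± 0.19 SE in medial over lateral intestine (FDR = 0.00846, higher in 4 of 4 animals). The medial over lateral call held in 6 of 23 alternative settings, and over all 23 the log2 fold change was between 1.155 and 1.341. With the animal as a block its FDR was 0.0115, and it was lost in 15 of the 16 settings that left out a library or an animal (highest FDR = 0.119). For PGLYRP1, medial over lateral was −0.80 ± 0.74 SE on the log2 scale (FDR = 0.935), and medial exceeded lateral in 1 of 4 animals. Whether the 2 genes differ in this comparison was not tested.

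**Figure D3:**
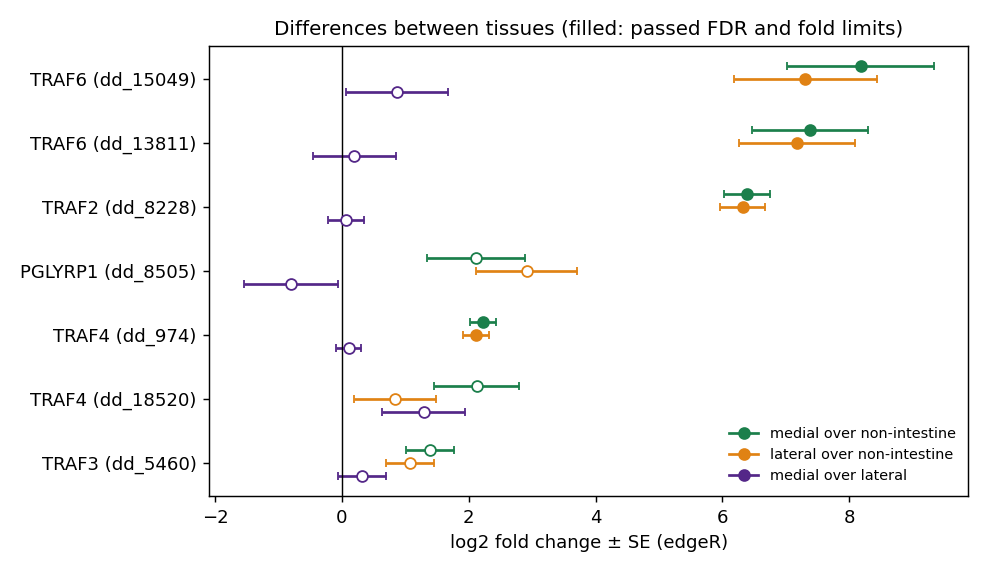
Log2 fold changes (horizontal axis) with approximate standard errors from edgeR for medial over non-intestine, lateral over non-intestine and medial over lateral intestine. Filled points passed the limits on FDR and fold change, and the 4 transcripts with filled points are TRAF2, both TRAF6 homologs and TRAF4 dd_974. The fitted values of the TRAF6 homologs rest on 7 and 1 reads in non-intestine.

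Between medial and lateral intestine, none of the 7 passed the limits on FDR and fold change. The largest positive value was that of TRAF4 dd_18520 (log2 1.29 ± 0.65 SE, edgeR FDR = 0.651), which was higher in medial intestine of 3 of 4 animals. TRAF6 dd_15049 had 0.87 ± 0.81 SE (FDR = 0.936) and TRAF3 dd_5460 0.32 ± 0.37 SE (FDR = 0.971). TRAF6 dd_13811 (0.20 ± 0.66 SE) and TRAF4 dd_974 (0.11 ± 0.20 SE) were close to 0. None of the 7 passed in any of 23 alternative settings, and these tests do not show that levels in the 2 regions are the same. Over all transcripts, 17 were higher and 21 lower, and 1117 (8.5%) had an unadjusted p under 0.05. The likelihood ratio test called 47 higher and 128 lower, and DESeq2 53 and 120.

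Levels of different transcripts were compared per length, on the deposited TPM. In medial intestine TRAF4 dd_974 was highest at 67.8 ± 16.2 TPM (SD, n = 4) and did not overlap the next, TRAF2 at 24.5 ± 5.57 TPM. TRAF3 dd_5460 (17.2 ± 2.79 TPM), TRAF4 dd_18520 (12.1 ± 5.02 TPM), TRAF6 dd_13811 (10.2 ± 0.911 TPM), TRAF6 dd_15049 (8.26 ± 4.54 TPM) and PGLYRP1 (2.78 ± 2.29 TPM) followed, each overlapping its neighbour in this order. In lateral intestine the order began in the same way, with 66.7 ± 17.2 TPM for dd_974, 24.8 ± 5.43 TPM for TRAF2 and 14.8 ± 5.95 TPM for TRAF3. TRAF6 dd_13811 was at 9.56 ± 3.60 TPM, and PGLYRP1 (5.33 ± 1.38 TPM), dd_18520 (5.18 ± 1.83 TPM) and dd_15049 (4.88 ± 2.10 TPM) were not separated there. In non-intestine dd_974 (31.1 ± 6.19 TPM) and TRAF3 (14.3 ± 5.63 TPM) were highest, and TRAF2 was down at 0.640 ± 0.212 TPM. A 3′ protocol reads each mRNA near its end, so division by length raises the values of short transcripts such as dd_15049 and lowers those of long ones such as PGLYRP1 (2534 bases). The place of PGLYRP1 depends on that division. In CPM, which are not per length, it averaged 10.0 ± 8.62 in medial and 17.5 ± 4.30 in lateral intestine, where TRAF6 dd_13811 averaged 8.87 ± 1.25 and 7.73 ± 2.44.

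The choice of scale moved all transcripts together. TPM carry no TMM factor and are also divided by length. TMM factors were between 0.765 and 0.985 in the intestinal libraries and between 1.206 and 1.496 in non-intestine. Leaving out the TMM factor moved the median fitted log2 fold change by −0.70 in medial and −0.65 in lateral intestine. The part of the division by length in the difference between TPM and CPM was not tested. The median log2 ratio of all transcripts over non-intestine was −1.23 in medial and −1.11 in lateral intestine on TPM, and −0.12 and −0.10 on CPM. TRAF4 dd_18520 in lateral intestine was thus at −0.17 on TPM and 0.84 on CPM, but 0.94 and 0.93 above the median. TRAF3 was 1.49 above the median in medial intestine on TPM and 1.52 on CPM, and 1.16 and 1.17 above it in lateral intestine. With counts fitted on library totals alone, 954 transcripts were higher and 2854 lower in medial intestine, against 1676 and 1511 with TMM. TRAF2, both TRAF6 homologs and TRAF4 dd_974 passed in both regions under this scaling, where dd_974 had a log2 value of 1.51 for medial and 1.46 for lateral intestine.

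Other TRAF homologs were counted in lists from 2 tables of the study. The table of intestine-enriched TRAFs has 35 transcripts, including the 6 TRAFs described above, and was drawn up from these libraries, so its direction is given by the choice. Of the 35, each region called 32 as higher, with a median log2 fold change of 2.45 for medial and 2.53 for lateral intestine. By homolog, 13 of 13 TRAF6, 4 of 4 TRAF5, 4 of 4 TRAF2, 10 of 12 TRAF3 and 1 of 2 TRAF4 transcripts were higher in medial intestine, with the same numbers in lateral intestine. TRAF6 dd_15049, TRAF6 dd_13811 and TRAF2 dd_8228 led the list. At its low end beside TRAF3 dd_5460 were TRAF6 dd_1439 (log2 1.23 in medial, 1.01 in lateral) and TRAF3 dd_3706 (1.17 in medial, 0.98 in lateral). None passed for medial against lateral intestine.

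**Figure D4:**
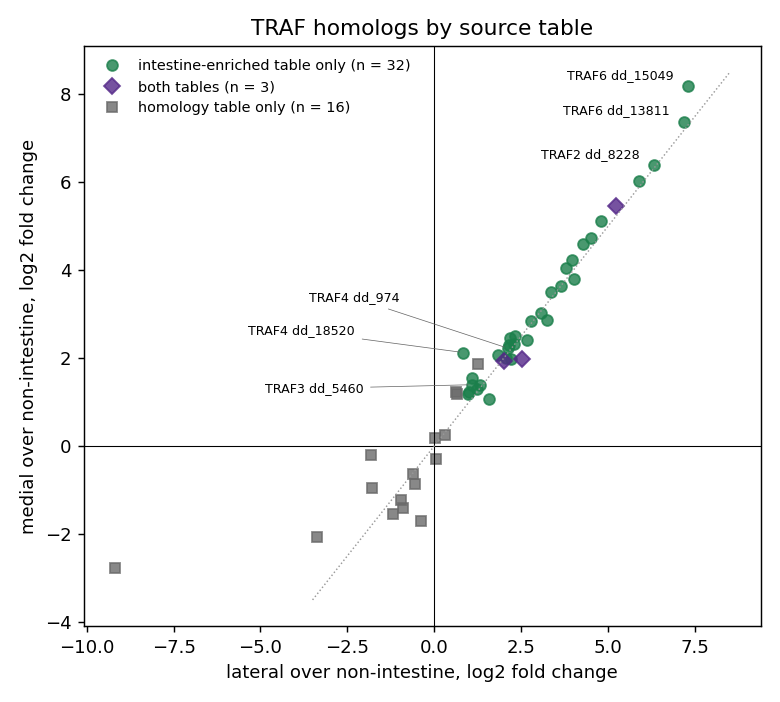
Log2 fold changes over non-intestine of tested TRAF homologs in medial (vertical axis) and lateral intestine (horizontal axis), marked by the table that lists them, with a dotted line at equal values. The 32 transcripts of the enriched table alone and the 3 in both tables lie above 0 on both axes, and the 16 in the homology table alone lie on both sides of 0, a split that the choice of the enriched table sets in part. The point at −9.18 (dd_11354) is a fitted value with no read in lateral intestine.

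A list of TRAF homologs not chosen by tissue came from the homology tables. Of 24 transcripts whose best human hit is a TRAF in the part of the homology tables at hand, 19 passed the filter on low counts. In both regions 3 of the 19 (15.8%) were higher, close to the 12.8% and 11.7% over all transcripts. That part was not a random draw, so the share is not a rate over all TRAF homologs. Several of the 19 had few reads. TRAF6 dd_13018, for example, averaged 0.227 CPM in medial intestine, 0.592 CPM in lateral intestine and 0.769 CPM in non-intestine. The median log2 fold change of the 19 was −0.30 in medial and −0.38 in lateral intestine, beside −0.17 and −0.12 over all transcripts. The 3 are also in the enriched table: dd_1308 (log2 5.46 in medial, 5.24 in lateral), dd_12190 (1.98 and 2.53) and dd_1163 (1.93 and 2.00). The tables name dd_12190 and dd_1308 after different TRAFs. TRAF6 dd_11354 was lower in lateral intestine (edgeR FDR = 0.0061), with 0 reads there against 376 in non-intestine, at least 89.2-fold lower against a floor of 3 reads over the group. Over all transcripts tested, 8.75% were lower in lateral intestine. This call was lost with the animal as a block (FDR = 0.017) and when any of the 4 lateral libraries was left out (highest FDR = 0.0146). TRAF4 dd_10281 (−2.07 in medial, −3.37 in lateral) and TRAF6 dd_10569 (−1.55 and −1.19) had the next lowest values and did not pass.

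Homologs of proteins that act with TRAFs were followed in a list of 17 transcripts. In medial intestine 9 were higher and in lateral intestine 8, against 12.8% and 11.7% of all transcripts. All of these are among the 10 that the study lists as enriched from these same libraries, so the count follows from that choice and is not independent evidence. The other 7 came from the homology tables, and none of them passed. RNF31 dd_9317, a homolog of the ligase that builds linear ubiquitin chains, led with 4.18 ± 0.61 SE in medial and 4.46 ± 0.62 SE in lateral intestine on the log2 scale. BIRC2 dd_2104, a homolog of the cIAP ligases that TRAF2 binds in mammals, had 2.17 ± 0.15 SE and 2.04 ± 0.15 SE. CYLD dd_5625, a homolog of the enzyme that removes ubiquitin chains from TRAFs, had 1.64 ± 0.60 SE (edgeR FDR = 0.0446) and 2.17 ± 0.61 SE (FDR = 0.0135) and did not pass. Lowest were MAPK14 dd_1282 (0.27 and 0.52), BIRC2 dd_1187 (−0.34 and −0.30) and CYLD dd_10719 (−0.42 and −0.60), none of which passed. The medial count was 5 without animal 1. The lateral count was 4 without the non-intestine library of animal 1, and 5 without the lateral library of animal 2, the non-intestine library of animal 3, or animal 1, 3 or 4. On library totals alone it was 2 in each region.

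The transcripts outside the 7 with the most similar profiles were found by the root mean square difference of centred log2 CPM over the 12 libraries. For TRAF4 dd_974 the nearest was BIRC2 dd_2104 (0.167), followed by MROH2B dd_3372 (0.176) and MGLL dd_6796 (0.178), against a median of 1.43 over all transcripts. For TRAF6 dd_13811 they were PDE4D dd_7577 (0.314), SUSD2 dd_6917 (0.383) and TRAF5 dd_3097 (0.391), with a median of 3.23. PRKAR2B dd_1362 (0.35) was the second nearest to TRAF2, after dd_75 (0.326) and before dd_1 (0.379), both without a human name. For TRAF6 dd_15049 they were ABCG2 dd_4081 (0.585), SLC8A1 dd_7229 (0.587) and dd_6714 (0.591), with a median of 2.64. The prior count of 2 in these log2 CPM narrows differences where reads are few. The fitted log2 fold changes over non-intestine were 5.48 in medial and 5.26 in lateral intestine for dd_4081. For dd_15049 they were 8.18 and 7.31. TRAF3 dd_5460 was nearest to dd_7832 (0.257), dd_1246 (0.304) and dd_991 (0.318), and TRAF4 dd_18520 to dd_17106 (0.621), SYNJ1 dd_1019 (0.670) and dd_5121 (0.684).

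PGLYRP1 was nearest to dd_10620 (0.514), RBCK1 dd_12678 (0.627) and dd_3276 (0.665), against a median of 2.05. These 3 held 0, 0 and 7 reads in medial intestine of animal 2, where PGLYRP1 held 3. The measure of likeness includes that library.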

How the data were processed

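Reads of 75 bases were trimmed by the authors with BBDuk, aligned with Bowtie2 2.3.1 to 28069 transcripts of the dd_Smed_v6 assembly, and counted per transcript with SAMtools 1.3. The deposited read counts are not normalized. The deposited CPM are a signal scaled to TMM-adjusted library sizes, made by the authors with edgeR 3.8.6. The deposited RPKM (not used for results) and TPM are per length. Columns of the authors' own fold changes and tests were not used.

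Counts were fitted with edgeR 4.0.16 in R 4.3.3 (TMM, 1 CPM or more in 4 or more of the 12 libraries, quasi-likelihood test, tissue as the only term, Benjamini-Hochberg adjustment over 13136 transcripts). Calls needed an FDR below 0.01 and a change of more than 2-fold, or 1.5-fold between medial and lateral intestine. Standard errors are the log2 fold change over the root of F and are approximate. DESeq2 1.42.0, the likelihood ratio test, other scaling, no filter, the animal as a block, fits on the tissues compared and leaving out each library or animal were alternatives, and library totals with no TMM factor were added after the data were seen. The code was tested on simulated data. Summaries used Python 3.11.15, pandas 2.3.3, numpy 2.4.6, scipy 1.17.1 and matplotlib 3.10.9.

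Libraries of the same number came from the same animal, by the study's methods. Their deviations from tissue means correlated between −0.01 and 0.159 over the pairs of tissues. Both intestinal comparisons share the non-intestine libraries. There were 4 animals and no molecular identifiers, so intervals from counts (exact, 95%) cover counting error only.

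Besides the 7 transcripts and PGLYRP3, the text names the 3 highest and 3 lowest of each list by the mean log2 fold change over non-intestine, any list member that passed between medial and lateral intestine, and the 3 nearest profiles (log2 CPM, prior count 2). Other transcripts named were chosen after their values were seen. The transcripts and lists were chosen with earlier results of these data known. The homology tables were used only in part, and no sequences were used here.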

Additional observations from a re-analysis of the deposited data

Results flagged for a closer look

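Among 21 groups of 4 libraries checked (7 transcripts in 3 tissues), 3 held a library far from the others by Dixon's criterion. For both TRAF6 homologs the other 3 libraries were at 0, so any read meets the criterion, and its usual chance rate of about 1 in 20 groups does not apply to them. In non-intestine, TRAF6 dd_13811 had 0.169 CPM in animal 2 and 0 in the other 3 libraries. TRAF6 dd_15049 had 0.0326 CPM in animal 3, which is 1 read, and 0 in the other 3. TRAF3 dd_5460 had 7.03 CPM in lateral intestine of animal 1, away from the other 3 lateral libraries (gap over range 0.866).

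PGLYRP3 dd_1523 differed between the intestinal regions, with a log2 fold change of 1.22 in medial over lateral intestine (edgeR FDR = 0.00846, higher in 4 of 4 animals), a call that held in 6 of 23 alternative settings.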

How the results depend on the processing

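Over non-intestine, the 7 transcripts kept their sign in 322 of 322 alternative values, and TRAF2, both TRAF6 homologs and TRAF4 dd_974 passed in 184 of 184. Between medial and lateral intestine 0 of 161 passed. When a library or an animal was left out, the medial over lateral log2 value was between −0.0265 and 0.2204 for TRAF4 dd_974, between −0.08 and 0.23 for TRAF2 and between −0.0157 and 0.45 for TRAF6 dd_13811. MAPK14 dd_1282 in medial intestine was then between −0.0795 and 0.5252. With no TMM factor it was −0.41 in medial and −0.11 in lateral intestine. The likelihood ratio test and DESeq2 each called 6 of the 7 in medial and 5 in lateral intestine, and leaving out libraries or animals gave 4 to 5 in each.

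Of the homology list, 0 were lower in medial intestine, with 1 under DESeq2's size factors, 1 under DESeq2, 3 with no TMM factor and 0 to 2 with libraries or animals left out. In lateral intestine 1 was lower, with 0 under the animal block, 3 with no TMM factor and 0 to 1 with libraries or animals left out. Of the 17 partners, 9 were higher in medial intestine, with 2 with no TMM factor and 5 to 9 with libraries or animals left out, and 8 in lateral intestine, with 2 and 4 to 9. With no TMM factor, 1 partner was lower in medial intestine. That setting moved the median log2 fold change of all transcripts by −0.70 in medial and −0.65 in lateral intestine and gave 930 higher and 2207 lower in lateral intestine, against 1543 and 1149. The animal block changed the call of PGLYRP3 between medial and lateral intestine (FDR = 0.0115) and of TRAF6 dd_11354 in lateral intestine (FDR = 0.017) and no other call named. The causes were not tested. With few reads in non-intestine, depth limits the fold changes of both TRAF6 homologs.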
